A study of Mus musculus with 6 samples.

Results

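Spasmolytic polypeptide-expressing metaplasia is a change of the gastric corpus in which glands that have lost or damaged parietal cells fill with mucous cells that carry both neck cell and chief cell products. The 8 genes described here, Wfdc2, Cd44, Clu, Olfm4, Muc4, Sox9, Mal2 and Vim, were taken by name as markers of that state, and all 8 were among the 23284 genes of the deposited table. They were read in parietal cells, which secrete gastric acid, sorted from mouse stomach by their red tdTomato fluorescence. The 3 noggin libraries have the genotype label Transgenic-Tom-nog: these mice carried H+/K+-Cre, Rosa26-tdTomato and H+/K+-Nog, which puts the BMP antagonist noggin under the promoter of the parietal cell proton pump. The 3 control libraries are labelled Transgenic-Tom and have the tdTomato reporter without the Nog transgene. Values are FPKM, fragment counts scaled by transcript length and by the size of the library, as the authors made them. Values of a group are listed in the order of replicates 1, 2 and 3. The labels call the libraries of each group biological replicates. They give no age and do not tell single animals from pools, so each p-value covers only the spread between these libraries.

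Bone morphogenetic proteins are secreted signals that act in gastric glands through receptors and Smad transcription factors, and noggin binds the ligands and keeps them from their receptors. The gland normally keeps mucous neck, chief and parietal cells distinct, and in mouse models metaplasia of this kind is recognised by genes such as the 8 here, which code for secreted proteins (Wfdc2, Clu, Olfm4), cell surface and membrane traffic proteins (Cd44, Muc4, Mal2), a transcription factor (Sox9) and a cytoskeletal filament (Vim). No source used here says that the sorted cells were metaplastic, and the 8 genes are called markers below only as a name. In a bulk library, more cells of a type and more RNA per cell cannot be told apart.

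1 library stood apart. Noggin replicate 3 had 542 of the 10644 tested genes listed at 0, against 19 to 34 in each of the other libraries, and it correlated least with the others (Spearman rho across genes 0.833 and 0.846 with the other noggin libraries, against 0.975 to 0.98 among control libraries). Noggin replicates 1 and 2 correlated at 0.911 with each other, and replicate 2 at 0.922 to 0.931 with the control libraries.

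The markers did not move as 1 block. Wfdc2 rose 3.69-fold in noggin libraries and was the only marker that passed the test across all genes. Clu (2.6-fold) and Cd44 (2.31-fold) were higher in each noggin library than in any control library but missed the threshold, Olfm4, Sox9 and Mal2 overlapped between groups, and Muc4 and Vim were too low to be tested. The test was limma on log2(FPKM + 1) for the 10644 genes that reached 1 FPKM in 3 or more libraries, and a gene was called at a Benjamini-Hochberg adjusted p under 0.05. Log2 fold changes on this scale, given below, understate the change of low genes, while the fold values above are ratios of mean FPKM. Of the 8 markers 6 reached the filter, of which 1 was called higher, where 1.75% of all tested genes were, and 0 were called lower, where 0.695% of all tested genes were (3 of the 6 had an unadjusted p under 0.05). Among these 6 markers 3 had noggin libraries entirely above the control libraries, as had 20.3% of all tested genes, and 0 had them entirely below, as had 18.0% of all tested genes.

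**Figure D1:**
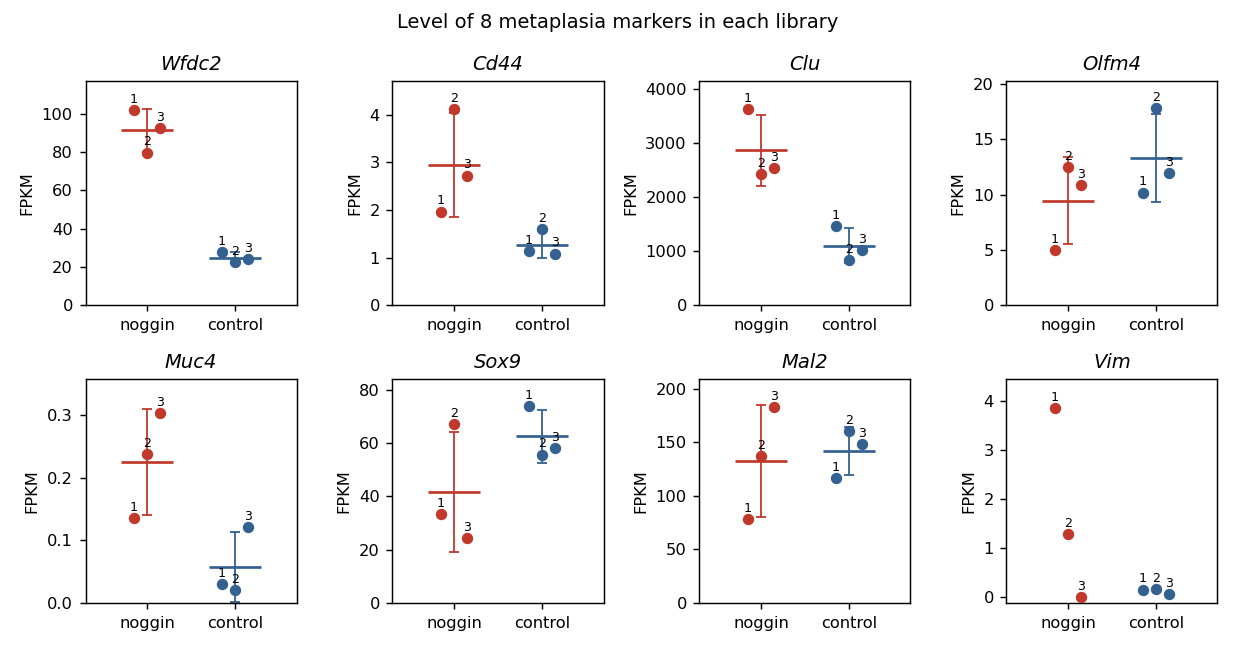
FPKM of each marker (vertical axis, linear, a separate scale per gene) in the noggin libraries (left, red) and control libraries (right, blue), with the replicate number above each point and the mean with SD as lines, except for Vim, which is listed at 0 in 1 library. Wfdc2, Clu, Cd44 and Muc4 show no overlap between groups, and the other 4 do, Vim only through the library listed at 0.

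The sequences before the annotated starts of Wfdc2, Cd44 and Muc4 are shown because these markers separated the groups and have a RefSeq promoter entry (GRCm38.p6, the build of the mm10 files). Each window is the 250 bases upstream of the RefSeq start, and only the bases before the first annotated untranslated region in the window are printed. In the GENCODE M21 annotation Wfdc2 starts at 164562413, so its window lies within that gene body. They lie at chr2:164562465-164562578 (plus strand, 114 bases) for Wfdc2, chr2:102901666-102901915 (minus strand) for Cd44 and chr16:32735636-32735885 (plus strand) for Muc4. Capitals mark a match to 1 of 5 motifs searched on both strands.
Wfdc2: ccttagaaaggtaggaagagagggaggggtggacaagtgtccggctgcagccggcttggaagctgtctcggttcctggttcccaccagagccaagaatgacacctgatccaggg
Cd44: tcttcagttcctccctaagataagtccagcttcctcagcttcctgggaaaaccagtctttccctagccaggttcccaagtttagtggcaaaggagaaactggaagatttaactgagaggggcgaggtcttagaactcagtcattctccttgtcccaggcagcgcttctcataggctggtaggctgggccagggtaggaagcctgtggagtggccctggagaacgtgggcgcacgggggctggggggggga
Muc4: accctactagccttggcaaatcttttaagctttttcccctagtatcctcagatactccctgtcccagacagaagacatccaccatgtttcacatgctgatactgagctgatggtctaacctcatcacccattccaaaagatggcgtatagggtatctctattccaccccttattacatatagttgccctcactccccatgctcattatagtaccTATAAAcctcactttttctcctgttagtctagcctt
The motifs were GGCGCC, a GC-rich element that Smad1 and Smad5 can bind, TGANTCA for AP-1, TTCNNNGAA for STAT factors, a tandem GAAA with NN between the copies for interferon regulatory factors and TATAAA, the TATA box. They occur in 9.59% (GGCGCC), 6.75% (TGANTCA), 7.02% (TTCNNNGAA), 2.98% (the tandem GAAA) and 12.4% (TATAAA) of the 32851 RefSeq windows of this length. The Wfdc2 window holds GGCGCC once, 109 bases before the start and within the untranslated region of a longer transcript, so it is not among the letters printed. The Cd44 window holds none of the 5 motifs, and the Muc4 window holds TATAAA 36 bases before the start. A match to these letters is a description of the sequence and not evidence of binding. Among the other markers, windows were at hand for Olfm4, with none of the motifs, and Vim, with TATAAA 32 bases before the RefSeq start. Both windows lie within the GENCODE gene bodies, and the Vim window begins in an annotated untranslated region.

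Wfdc2 (ENSMUSG00000017723.11, chromosome 2, 164562413 to 164568510 in GRCm38) codes for a small secreted protein with whey acidic protein domains, a fold shared with protease inhibitors, and is used in mouse as an early marker of this metaplasia. It was at 102, 79.8 and 92.4 FPKM in the noggin libraries, against 27.9, 22.4 and 24.1 FPKM in the control libraries. The lowest noggin library stood far above the highest control library, and within each group the libraries lay close together. The means were 91.4 ± 11.1 FPKM in noggin libraries and 24.8 ± 2.81 FPKM in control libraries (SD, n = 3 each), which is 1.84 ± 0.19 (SE) in log2 fold change (adjusted p = 0.00887 by limma). It ranked 17th of the 10644 tested genes by p-value, and 98.2% of them had a lower log2 fold change. By exact permutation p was 0.1, below which 3 against 3 libraries cannot go.

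The size of the Wfdc2 change depended on how the libraries were scaled, and its call on whether transcript length was taken into account. Across all tested genes the log2 fold change fell with transcript length (Spearman rho -0.554 across 10542 genes, which are not independent replicates), with a median of 0.76 for the 1148 genes under 1000 bases and of -0.45 for the 4031 genes of 3000 bases or more. Wfdc2 has a median transcript length of 558 bases, the shortest of the 8 markers. With the length trend of each library removed, Wfdc2 was at 0.97 (SE 0.234, limma adjusted p = 0.112), and with the longest transcript in place of the median at 0.99 (adjusted p = 0.0803), so it was no longer called. Total FPKM was 1183213, 797168 and 1188186 in the noggin libraries, against 633253, 669124 and 595736 in the control libraries. With all libraries rescaled to 1 total, which put the median of all tested genes at -0.63 in place of -0.03, Wfdc2 was at 1.14 and remained called (adjusted p = 0.0387). Without noggin replicate 3 Wfdc2 was called at 1.83 (adjusted p = 0.0202). Without control replicate 1 or control replicate 3 it was at 1.93 and 1.82 and missed the threshold (adjusted p = 0.066 and 0.078).

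**Figure D2:**
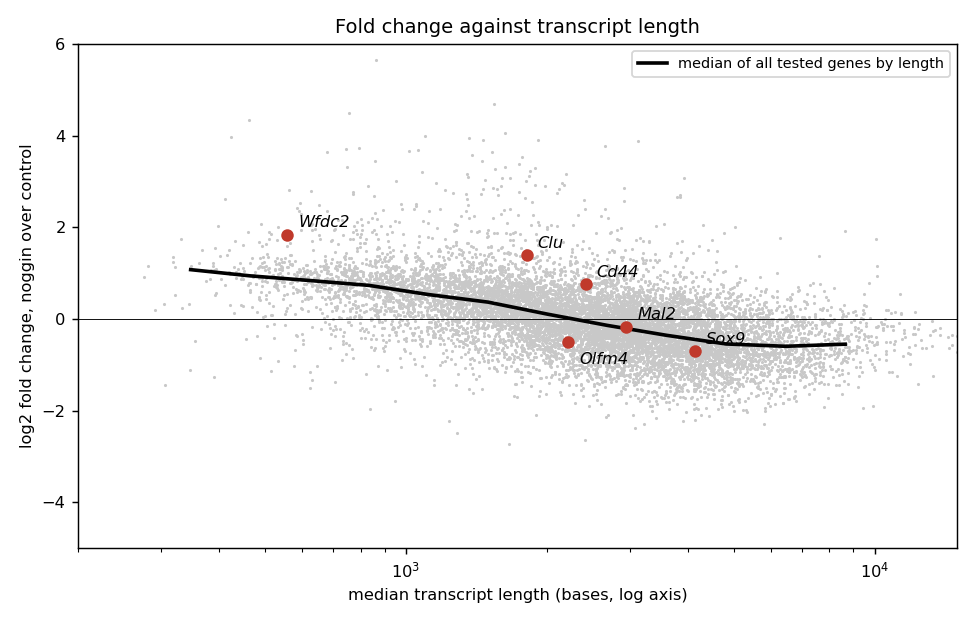
Log2 fold change of noggin over control (vertical axis) against the median transcript length of each tested gene in bases (horizontal log axis), with the markers in red and the median of all tested genes by length as a black line; 102 genes, Nog among them, lie outside the axes. Wfdc2, Clu and Cd44 lie above the line, and Mal2 lies close to it.

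Clu (ENSMUSG00000022037.15, chromosome 14, 65968483 to 65981547) codes for clusterin, a secreted chaperone that binds misfolded proteins and lipids. It was at 3622, 2419.9 and 2533 FPKM in the noggin libraries, against 1455, 832 and 1015 FPKM in the control libraries. The groups did not overlap, and replicate 1 was the highest library in each of them. The means were 2858 ± 664 FPKM in noggin libraries and 1101 ± 320.2 FPKM in control libraries (SD, n = 3 each), which is 1.39 ± 0.311 (SE) in log2 fold change and fell short of the threshold (adjusted p = 0.0647 by limma, exact permutation p = 0.1). Clu was the most abundant of the 8 markers in both groups. It was called higher without noggin replicate 2 (1.50, adjusted p = 0.0314) and among genes of at least 5 FPKM (1.39, adjusted p = 0.0496). The fit without noggin replicate 2 called more of all tested genes higher than any other setting. The log2 fold change of Clu was 0.67 after rescaling and 0.58 after quantile normalization, and 1.17 with the length trend removed (adjusted p = 0.0905).

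Olfm4 (ENSMUSG00000022026.7, chromosome 14, 79984081 to 80023139) codes for olfactomedin 4, a secreted glycoprotein best known as a marker of intestinal stem cells. It was at 4.98, 12.5 and 10.9 FPKM in the noggin libraries, against 10.2, 17.8 and 11.95 FPKM in the control libraries. The groups overlapped, with noggin replicate 1 the lowest and control replicate 2 the highest library. The log2 fold change was -0.50 (SE 0.385, limma adjusted p = 0.422), and Olfm4 was not called under any of the 16 alternatives run. It overlaps a non-coding RNA, Gm6999, on the same strand. No other olfactomedin of the 7 looked at reached the filter.

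Cd44 (ENSMUSG00000005087.17, chromosome 2, 102811141 to 102901665) codes for a cell surface receptor of hyaluronan, and a splice variant of it is a marker of this metaplasia in mouse. The table has 1 value per gene, so the variant was not measured here. Cd44 was at 1.97, 4.12 and 2.72 FPKM in the noggin libraries, against 1.13, 1.59 and 1.08 FPKM in the control libraries. The groups did not overlap, but both lay near the filter of 1 FPKM and replicate 2 was the highest in each group. The means were 2.94 ± 1.09 FPKM in noggin libraries and 1.27 ± 0.282 FPKM in control libraries (SD, n = 3 each), which is 0.76 ± 0.325 (SE) in log2 fold change and failed the test (adjusted p = 0.183 by limma, exact permutation p = 0.1). Its sign held under all 15 alternatives in which it was tested, and it was called in 0 of them. The log2 fold change ran from 0.33 after rescaling to 1.22 with the length trend removed by the longest transcript.

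Muc4 (ENSMUSG00000079620.13, chromosome 16, 32735886 to 32782391), a membrane-bound mucin with a very long coding sequence, reached 1 FPKM in 0 libraries. It was at 0.135, 0.238 and 0.303 FPKM in the noggin libraries, against 0.0297, 0.0204 and 0.122 FPKM in the control libraries. Every noggin library was above every control library, and the exact permutation test on log2(FPKM + 1) gave p = 0.1, the smallest possible. Without a filter on low values the log2 fold change was 0.21 (limma adjusted p = 0.226). Muc4 overlaps Muc20 on the opposite strand, and no source used here says that strand was kept. Levels this low rest on few reads, whose number is unknown.

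Mal2 (ENSMUSG00000024479.3, chromosome 15, 54571192 to 54602847) codes for a membrane protein of apical transcytosis, the route by which the immunoglobulin receptor Pigr crosses epithelial cells. It was at 78.3, 137 and 182.5 FPKM in the noggin libraries, against 116.6, 160.4 and 148 FPKM in the control libraries. The noggin libraries held both the lowest and the highest value, and the control libraries lay between them. The log2 fold change was -0.17 (SE 0.315, limma adjusted p = 0.761), and its sign turned with the length trend removed (0.04) and without noggin replicate 1 (0.17). Mal2 was abundant in all 6 libraries, and the difference between groups was within the spread of the noggin libraries.

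Sox9 (ENSMUSG00000000567.5, chromosome 11, 112782224 to 112787760), a transcription factor of progenitor cells in several epithelia, was at 33.4, 67.1 and 24.2 FPKM in the noggin libraries, against 73.7, 55.6 and 58 FPKM in the control libraries. Noggin replicates 1 and 3 lay under every control library, and noggin replicate 2 lay within their range. The means were 41.6 ± 22.6 FPKM in noggin libraries and 62.5 ± 9.82 FPKM in control libraries (SD, n = 3 each), which is -0.69 ± 0.358 (SE) in log2 fold change and failed the test (adjusted p = 0.249 by limma, exact permutation p = 0.3). Without noggin replicate 2 Sox9 was called lower (-1.10, adjusted p = 0.0299), in a fit that called far more of all tested genes than the main one. With the length trend removed Sox9 was at -0.25 (adjusted p = 0.661). Its transcript of 4135 bases is the longest among the tested markers.

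Vim (ENSMUSG00000026728.9, chromosome 2, 13573927 to 13582826) codes for vimentin, the intermediate filament of mesenchymal cells and leukocytes, which in metaplastic glands has been used to mark a more advanced state. Its level was 3.85 FPKM in noggin replicate 1 and 1.28 FPKM in replicate 2, and it was listed at 0 in replicate 3, against 0.149, 0.164 and 0.0579 FPKM in the control libraries. The groups therefore overlapped through the 0 of replicate 3 alone. Only 2 libraries reached 1 FPKM, so Vim was not tested. The exact permutation p was 0.4. Noggin replicate 3 is the library with many tested genes listed at 0, so its 0 for Vim is not read as an absence.

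**Figure D3:**
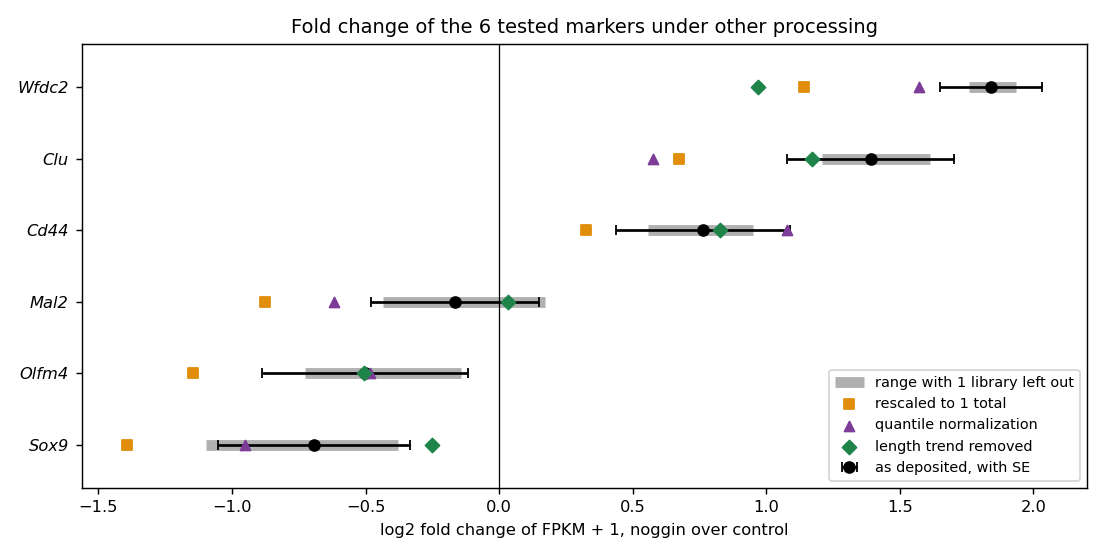
Log2 fold change of noggin over control for the 6 tested markers (rows), as deposited with its SE (black), with 1 library left out (grey range), after rescaling to 1 total (orange), after quantile normalization (purple) and with the length trend removed (green). Wfdc2, Clu and Cd44 stay to the right of 0 in all of these, Olfm4 and Sox9 to the left, and Mal2 crosses 0.

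FPKM is scaled by transcript length, but the log2 fold change still fell with length here (Spearman rho -0.554), so the order of the markers is only a description. That order changed little between groups. In noggin libraries Clu led, Mal2 (132.6 ± 52.2 FPKM) and Wfdc2 followed with overlapping ranges, and Sox9, Olfm4 (9.45 ± 3.95 FPKM) and Cd44 came next in that order without overlap between neighbours. In control libraries the order was Clu, Mal2 (141.7 ± 22.6 FPKM), Sox9, Wfdc2, Olfm4 (13.3 ± 3.99 FPKM) and Cd44, again without overlap between neighbours (SD, n = 3 each). Wfdc2 thus stood above Sox9 in each noggin library and under it in each control library. Wfdc2 has the shortest transcript of the 8 markers (558 bases) and Sox9 the longest of the tested ones (4135 bases). With the length trend removed their log2 fold changes were 0.97 and -0.25, and the order of levels was not tested that way. Muc4 was the lowest of the 8 by its mean in both groups.

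Other genes of gastric metaplasia were read beside the 8 markers. Of 25 such genes 24 were in the table and 18 were tested, of which 7 rose (1.75% of all tested genes did), 0 fell and 11 did not pass, at a median log2 fold change of 1.93, against -0.03 for all tested genes. The 7 depended on the setting and the libraries: 0 rose without a filter on low values, 3 after rescaling, 4 with the length trend removed, 9 without noggin replicate 2 or without noggin replicate 3, 1 without noggin replicate 1, control replicate 1 or control replicate 3, and 2 without control replicate 2. The share of all tested genes called higher moved as well, and was largest without noggin replicate 2. The 7 were Nupr1, Pigr, Gkn3, Tff2, Aqp5, Muc6 and Gpx2, and 4 of these (Tff2, Muc6, Gkn3 and Aqp5) are also markers of mucous neck cells. Nupr1, a stress-induced nuclear protein, was at 1022.5, 747 and 834 FPKM in the noggin libraries, against 180.5, 113 and 71.8 FPKM in the control libraries (log2 fold change 2.91, SE 0.333, limma adjusted p = 0.0143). Pigr, which carries immunoglobulin A across the epithelium, was at 50.9, 64.3 and 34.7 FPKM in the noggin libraries, against 4.36, 7.62 and 8.38 FPKM in the control libraries (log2 fold change 2.71, adjusted p = 0.0159). With the length trend removed both were called, at 2.21 for Nupr1 and 3.11 for Pigr (adjusted p = 0.0374 and 0.0111). Nupr1 missed the threshold without noggin replicate 1 (adjusted p = 0.0515) and without a filter (0.0687), and Pigr without noggin replicate 1 (0.0528), control replicate 1 (0.0798) or control replicate 3 (0.0609) and without a filter (0.068). Gkn3, a secreted gastrokine, and Tff2, the spasmolytic polypeptide that gives the metaplasia its name, had log2 fold changes of 2.69 and 2.41, just past the threshold (adjusted p = 0.04997 and 0.0478). Gkn3 was called under 3 of 16 alternatives and Tff2 under 5, with adjusted p up to 0.217 for Gkn3 and 0.291 for Tff2. Genes of intestinal metaplasia, the type with intestinal goblet cells and absorptive cells, had 0 of 7 tested members called, where 1.75% of all tested genes rose, at a median of 0.41 (3 at an unadjusted p under 0.05). Its members with the lowest p were Tff3, Spink4, Guca2a and Lgals4, at log2 fold changes of 1.60, 2.04, 2.53 and 0.41. Tff3, Spink4 and Guca2a were higher in every noggin library than in any control library, as were 20.3% of all tested genes. Their transcript lengths are 493, 397 and 594 bases, and all tested genes under 1000 bases had a median log2 fold change of 0.76. Tff3 was under 1 FPKM in every control library and passed the filter through the noggin libraries alone, so its direction was set by the filter. With the length trend removed 0 of the 7 were called, at a median of -0.03. Spink4 and Guca2a were called after rescaling (adjusted p = 0.0497 for each), Tff3 and Spink4 after quantile normalization (0.0336 and 0.0475), all 3 without noggin replicate 2, and Tff3 without noggin replicate 3. Without noggin replicate 2 more of all tested genes were called higher than under any other setting.

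Partners and relatives of the surface markers were looked at next. Of 9 tested genes of hyaluronan biology and Cd44 interaction, Cd44 included, 1 rose, 1 fell and 7 did not pass. Of all tested genes 1.75% rose and 0.695% fell. The median log2 fold change of the 9 was 0.55, against -0.03 for all tested genes. Spp1, which codes for osteopontin, a secreted ligand of Cd44, measured 1194, 940.6 and 777 FPKM in the noggin libraries, against 307, 239 and 213.5 FPKM in the control libraries (log2 fold change 1.93, SE 0.241, limma adjusted p = 0.0181), and was called with the length trend removed (1.53, adjusted p = 0.0221). Spp1 missed the threshold without control replicate 1 (adjusted p = 0.0783), control replicate 2 (0.0784) or control replicate 3 (0.129) and without a filter (0.0687). Rdx, or radixin, a linker of Cd44 to actin, was at 1.25, 0.757 and 1.07 FPKM in the noggin libraries, against 6.52, 9.22 and 9.29 FPKM in the control libraries (log2 fold change -2.20, adjusted p = 0.0257), and was called under 9 of 16 alternatives. It missed the threshold with the length trend removed (-1.76, adjusted p = 0.0642), without a filter (0.0927), and without noggin replicate 1 (0.0509) or any 1 control library (0.13 to 0.204). For Ezr, the related linker ezrin, the log2 fold change was -0.51 (adjusted p = 0.155). Cd74, a class II chain that forms a receptor complex with Cd44, was at 8.78, 36.8 and 182.2 FPKM in the noggin libraries, against 6.64, 4.14 and 5.06 FPKM in the control libraries (log2 fold change 2.72, adjusted p = 0.124). The hyaluronan synthases Has1, Has2 and Has3 were at or below 0.0701 FPKM in every library.

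Among the 11 tested genes of the Mal family and its partners, Mal2 included, Pigr rose, 0 fell and 10 did not pass. Of all tested genes 1.75% rose and 0.695% fell. The median of the 11 was 0.22. Cmtm6, Plp2 and Tpd52 had log2 fold changes of -1.17, 0.68 and 0.58. The only tested membrane mucin was Muc1, a surface mucin of the stomach, at 220.1, 322 and 499 FPKM in the noggin libraries, against 188, 132 and 122 FPKM in the control libraries (log2 fold change 1.18, limma adjusted p = 0.0925). The whey acidic protein relatives of Wfdc2 had 2 tested members besides it, Wfdc12 (log2 fold change 2.03, adjusted p = 0.0647) and Wfdc15b (0.60, adjusted p = 0.647), and neither passed. Wfdc12 was under 1 FPKM in every control library and reached the filter through the noggin libraries alone.

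Of 5 tested Sox factors 0 were called, where 1.75% of all tested genes were called higher and 0.695% lower, at a median of -0.51. Those besides Sox9 were Sox2, Sox4, Sox13 and Sox21, at log2 fold changes of 0.76, 0.45, -0.51 and -0.69. Of 6 tested intermediate filament genes 0 were called, against the same shares of all tested genes, at a median of 0.72. The epithelial keratins Krt7, Krt8, Krt18 and Krt19 were at 1.44, 0.61, 1.00 and 0.84 (limma adjusted p = 0.155, 0.171, 0.0763 and 0.0986). Krt8 turned negative after rescaling (-0.11) and quantile normalization (-0.17). Among genes of mesenchymal transition only Cdh1 and Epcam, both of epithelial cells, were tested besides the untested Vim, at -0.76 and 0.94, and neither passed (adjusted p = 0.0903 and 0.0668). In the list built round clusterin 0 of 7 tested genes were called, against the same shares of all tested genes, at a median of 0.49. Apoe, Vldlr, Bax and Xrcc6 were at 1.78, -1.14, 0.49 and -0.46.

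**Figure D4:**
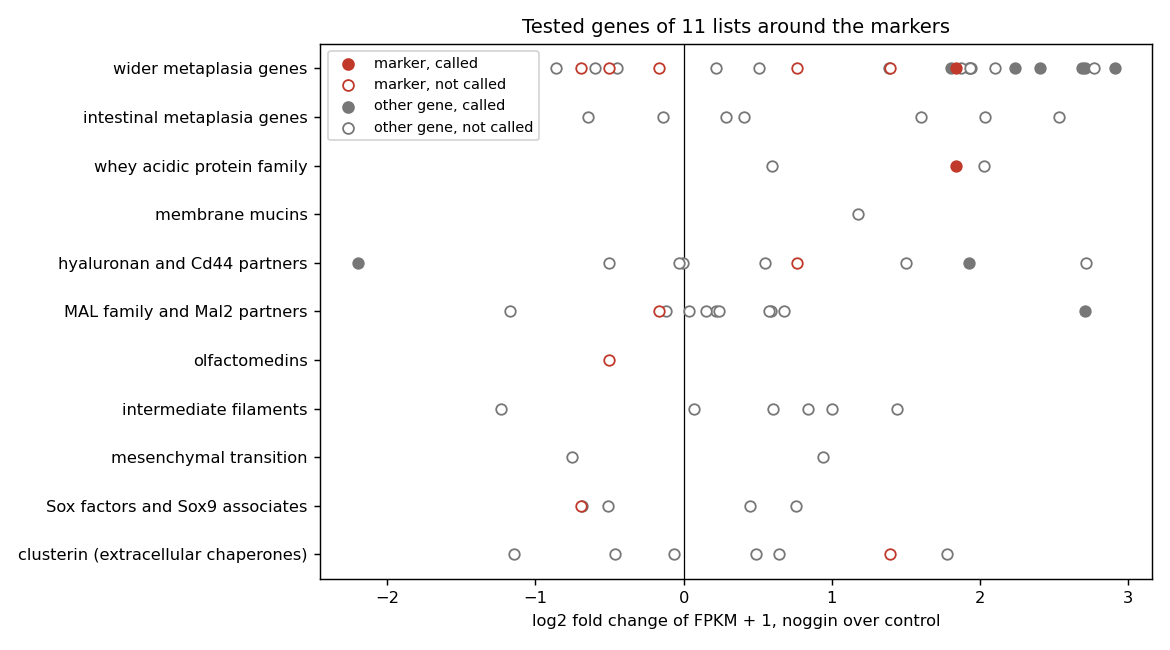
Log2 fold change of noggin over control (horizontal axis) for each tested gene of 11 lists (rows), with the markers in red and other genes in grey, filled where limma called the gene and open where it did not. Called genes other than Wfdc2 sit in the wider metaplasia, hyaluronan and Mal lists.

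Markers of other cell types were read beside the 8 genes. The summed level of 5 mucous neck cell markers was 25864, 10765 and 13025 FPKM in the noggin libraries, against 3166, 3362 and 2456 FPKM in the control libraries, and all 5 (Tff2, Muc6, Gkn3, Aqp5 and Agr2) were called higher, where 1.75% of all tested genes were. Without noggin replicate 1 or any 1 control library 0 of the 5 were called, after rescaling 2 and with the length trend removed 3. As a share of total FPKM the neck sum was 2.19%, 1.35% and 1.1% in the noggin libraries, against 0.5%, 0.502% and 0.412% in the control libraries. Chief cell markers summed to between 133631 and 360936 FPKM in noggin libraries and to between 62824 and 116260 FPKM in control libraries. Of 7 tested, 0 were called, where 1.75% of all tested genes were called higher and 0.695% lower. Clps and Pnliprp2 were higher in every noggin library than in any control library, as were 20.3% of all tested genes. The other tested chief cell markers overlapped. Clps made up most of the chief cell sum in noggin libraries: without it the sums were 44525, 60119 and 116101 FPKM in the noggin libraries, against 71419, 58568 and 40048 FPKM in the control libraries, and overlapped. The whole chief cell sum also overlapped as a share of total FPKM, at 18%, 16.8% and 30.4% in the noggin libraries, against 18.4%, 14.7% and 10.5% in the control libraries. The 13 parietal cell markers, all present, summed to between 32401 and 35715 FPKM in noggin libraries and to between 34399 and 41432 FPKM in control libraries. Without Atp4b the sums were 10532, 12630 and 10934 FPKM in the noggin libraries, against 17522, 17836 and 20283 FPKM in the control libraries. The proton pump subunits Atp4a and Atp4b were not called, at log2 fold changes of -1.21 and 0.22. Atp4a was lower in every noggin library (5433, 7618.5 and 5773 FPKM) than in any control library (13662, 13385 and 16218 FPKM), as were 18.0% of all tested genes. It was called lower under 3 of 16 alternatives: rescaling (limma adjusted p = 0.0283), quantile normalization (0.0208) and without noggin replicate 2. Atp4b was below 0 after rescaling, quantile normalization or removal of the length trend. Of the 13 markers, 4 were called lower (Slc26a7, Clic6, Esrrg and Hip1r), where 0.695% of all tested genes were, and 9 were not called. The 4 became 8 after rescaling, 7 without noggin replicate 2, 2 without noggin replicate 3, 1 without noggin replicate 1 and 0 with the length trend removed or without any 1 control library. Rescaling called 820 of all 10644 tested genes lower, against 74 in the main fit. The fit without noggin replicate 2 also called far more genes than the main fit. As a share of total FPKM the parietal sum was lower in noggin libraries, at 3.02%, 4.4% and 2.73%, against 5.43%, 5.87% and 6.96% in the control libraries. The neck cell sum was higher in every noggin library than in any control library, as were Wfdc2, Clu and Cd44, and its part in those results was not tested. Nog itself was at 2734, 2289 and 2281 FPKM in the noggin libraries, against 1.97, 0.871 and 1.09 FPKM in the control libraries.

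Markers of leukocytes, of stroma and endothelium and of enteroendocrine cells differed in level between lists and libraries. The 21 leukocyte markers in the table summed to 49, 71.7 and 391 FPKM in the noggin libraries, against 11.5, 9.08 and 10.8 FPKM in the control libraries. Of 7 tested, 1 was called higher (Fcer1g), where 1.75% of all tested genes were. The count was 4 without noggin replicate 3 but 0 without noggin replicate 1 or any 1 control library. Fcer1g, Tyrobp, Laptm5 and Cd52 were under 1 FPKM in every control library and passed the filter through the noggin libraries alone. Their direction was thus set by the filter, and their calls are only a description. In noggin replicate 3 the sum was carried by Cd74, H2-Aa, Lyz2 and H2-Ab1, at 182.2, 62.3, 52.6 and 44.2 FPKM, against at most 6.64, 1.02, 0.72 and 1.53 FPKM in a control library. Ptprc, the pan-leukocyte marker CD45, was at 0.0493, 0.18 and 1.3 FPKM in the noggin libraries, against 0.0063, 0.00407 and 0.0421 FPKM in the control libraries. Stromal and endothelial markers summed to between 23.4 and 37.2 FPKM in noggin libraries and to between 24.6 and 27.3 FPKM in control libraries, of which Plvap alone gave 22 to 34.5 FPKM in noggin libraries and 23.5 to 25.4 FPKM in control libraries. The fibroblast collagens Col1a1, Col1a2 and Col3a1 were at or near 0 in all 6 libraries. Enteroendocrine markers summed to 1901, 28667 and 21288 FPKM in the noggin libraries, against 442.5, 683 and 2686 FPKM in the control libraries. Without Gast the sums were 1878, 2641 and 6594.5 FPKM in the noggin libraries, against 239.6, 296.3 and 460.9 FPKM in the control libraries. Of 7 tested, 2 were called higher (Ghrl and Chga), where 1.75% of all tested genes were. The count was 0 with the length trend removed or without control replicate 1 or 3. The part of these cells in the levels of the 8 markers was not tested.

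**Figure D5:**
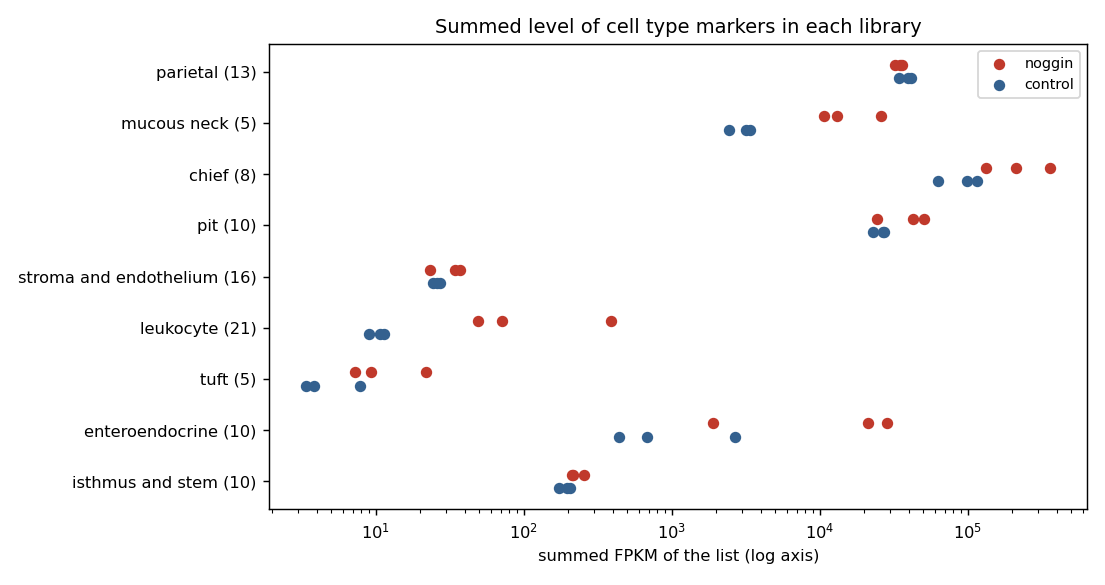
Summed FPKM of cell type markers (horizontal log axis) in each library, noggin in red above control in blue, for 9 lists (rows, with the number of genes found in the table in parentheses). Mucous neck, chief, leukocyte and isthmus sums are higher in every noggin library than in any control library and the other 5 overlap. Of these 5, the enteroendocrine sums without Gast are higher in every noggin library, and the parietal sums without Atp4b are lower. Without Clps the chief sums overlap and without Stmn1 the isthmus sums do (73.2, 98.7 and 80.1 FPKM in noggin libraries, against 105.8, 105 and 92.9 FPKM in control libraries), and as a share of total FPKM the isthmus sum is lower in every noggin library.

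For each tested marker the tested genes of at least 5 FPKM on average whose log2(FPKM + 1) followed it most closely over the 6 libraries are given as a description, by Pearson correlation among 6747 or 6748 genes. The closest to Wfdc2 were Dap, Fam100a and Rhoc (0.998, 0.996 and 0.995), of which Dap was at 170.3, 149 and 151 FPKM in the noggin libraries, against 63.3, 56.4 and 56.6 FPKM in the control libraries. The closest to Clu were Tmem222, BC017158 and Fam132a, and Arpc5 and Clp1 were among the 3 closest to Cd44. The closest to Olfm4 were Mcart1, Mcmbp and Copg2, to Sox9 Akt1, Fbxw5 and Mtmr14, and to Mal2 Rcan1, Eif5 and Runx1t1. The 3 closest genes differed for each of the 6 tested markers, with no gene named under more than 1 of them.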

How the data were processed

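RNA of sorted mouse parietal cells was measured in 3 noggin and 3 control libraries, amplified with a SMART-Seq low-input kit and sequenced single-end, per the labels' protocols. The deposited table gives FPKM per gene and library, a unit the authors computed. Named in the submitters' processing notes are mm10, bcl2fastq and FastQC 0.10.0. For the aligner, quantifier and annotation the sources used here give no name. Whole reads were not recovered, so the depth of each library is unknown and no interval that needs a read count is given.

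The 8 markers, the gene lists, the rule for named genes and the tests were chosen with earlier results of these data known. Values were transformed to log2(FPKM + 1), genes that reached 1 FPKM in 3 or more libraries were tested with limma 3.58.1 in R 4.3.3 (mean-variance trend, two-sided, group as the only term), and p-values were adjusted over all tested genes. Every adjusted p in the text is from limma. For single genes a two-sided exact permutation test was added. The fit was checked on simulated data with 10644 genes, of which 200 were changed: for this comparison the share recovered was 0% at a log2 fold of 1, 57% at 2 and 93% at 4, so a gene that was not called is not shown to be unchanged. In each list up to 4 other genes are named, called ones first by size and then by lowest p, and for each tested marker the 3 genes most alike are named, except 1 that is not reported here; Muc6, Gpx2, the marker genes of other cell types and the hyaluronan synthases are named outside this rule, after their values were seen. Lengths are medians over the GENCODE M21 basic transcripts (99.0% of tested genes); for each library, deviations from the mean over libraries were fitted on length by loess (span 0.3) and the fit subtracted. The use of the longest transcript instead, marker sums without their most abundant gene or as a share of total FPKM, and counts of list calls under each alternative were added after seeing the data. Older symbols in the lists were matched through RefSeq synonyms.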

Additional observations from a re-analysis of the deposited data

How the results depend on the processing

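Wfdc2 kept its sign under all 16 alternatives and its call under 12. It lost the call with the length trend removed by either transcript length, where 0 markers were called higher, and without control replicate 1 or control replicate 3. Cd44 was called under 0 of the 15 alternatives in which it was tested, and with the filter of 5 FPKM 2 markers (Wfdc2 and Clu) were called higher.

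The numbers of genes called moved more. Against 186 higher and 74 lower they were 130 and 820 after rescaling to 1 total, 243 and 231 after quantile normalization, 85 and 26 with a pseudocount of 0.1, 72 and 21 with one of 0.01, 8 and 4 without a filter on low values, 66 and 17 without the mean-variance trend, 46 and 20 with the length trend removed and 62 and 22 with it removed by the longest transcript. Leaving out 1 library gave 4 (without control replicate 1) to 1187 (without noggin replicate 2) genes higher and 5 to 825 lower, with 0 to 2 markers higher and 0 to 1 lower (Clu higher and Sox9 lower, both without noggin replicate 2). Calls of single markers and list genes under a setting are to be read beside these totals. A fit with the replicate number as a block gave 128 higher and 32 lower genes and Wfdc2 at an adjusted p of 0.0124, with no change in which markers were called; same-numbered libraries did not deviate together (Pearson r 0.105, -0.141 and 0.005), so the number was not taken as a pairing.

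Signs that turned were those of genes not called. After rescaling the log2 fold change was -0.49 for Atp4b, -0.26 for Lgals4, -0.035 for Plp2, -0.13 for Tpd52, -0.11 for Krt8, -0.24 for Sox4 and -0.21 for Bax. After quantile normalization it was -0.56 for Atp4b and -0.17 for Krt8, and with a pseudocount of 0.01 it was -0.99 for Wfdc15b. With the length trend removed it was 0.035 for Mal2, -0.20 for Atp4b, -0.032 for Lgals4, -0.29 for Wfdc15b and -0.21 for Bax, and by the longest transcript -0.32 for Atp4b, -0.13 for Lgals4, -0.39 for Wfdc15b and -0.21 for Bax. With 1 library left out it ran between -0.43 and 0.17 for Mal2 and between -0.003 and 0.98 for Sox4. Among lists with 0 calls, single alternatives gave up to 3 higher and 1 lower for the clusterin list, 2 and 1 for intermediate filaments, and 1 and 1 for Sox factors. These highest counts came without noggin replicate 2, where far more of all tested genes were called. The cause of these changes was not tested. Depth is unknown, so counting error at low levels (Muc4, Vim, Cd44) could not be given.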
